A study of Mus musculus with 10 samples.

Results

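H19, Kcnq1ot1 and Airn are long non-coding RNAs made from imprinted loci, where a gene is transcribed mainly from the copy inherited from a given parent. They were taken from a table of long non-coding transcripts by matching its transcript identifiers to the GENCODE M21 annotation and keeping all transcripts of these 3 genes. This gave 14 of the 20741 transcripts in the table, and 3 of its 14787 genes and loci. RNA was taken from the left ventricle of C57BL/6 mice 6 weeks after transverse aortic constriction (TAC), surgery that narrows the aortic arch with a band and so puts the ventricle under pressure. There were 4 Sirt5 knockout samples (replicates 2 to 5) and 6 wild-type (WT) samples (replicates 1, 3, 4, 5, 6 and 7), all banded. Sirt5 encodes a mitochondrial enzyme that removes succinyl and other acyl groups from lysines. The series' design text describes male mice aged 5 weeks, a conventional knockout made with CRISPR-Cas9, a tamoxifen-inducible Cre-ERT2 system, and 1 mg of tamoxifen daily for 10 days with 4 weeks before banding. It does not say which of these apply to which sample, and it names no promoter for the Cre. Whether each sample is its own animal is not stated, so p-values here reflect sample-to-sample spread that may be partly technical. Sham-operated hearts were not analysed here.

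In the mouse, H19 is expressed from the maternal chromosome, opposite in parental origin to its neighbour Igf2. It is abundant in fetal muscle and heart and low in most adult tissues, and its first exon holds the precursor of miR-675. Kcnq1ot1 and Airn are long RNAs expressed from the paternal chromosome, each transcribed against a coding gene (Kcnq1, a potassium channel subunit, and Igf2r, the receptor that clears IGF2). They are known as repressors in cis of the imprinted genes around them, most broadly in extra-embryonic tissue.

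H19 (ENSMUSG00000000031.16) lies on the minus strand of GRCm38 at chr7:142575529-142578143 and has 7 annotated transcripts. Kcnq1ot1 (ENSMUSG00000101609.2) is a single unspliced transcript of 93092 bases on the minus strand at chr7:143203458-143296549. It lies wholly inside the span of Kcnq1 on the plus strand (chr7:143106362-143427042) and covers at least 1 exon of that gene. Airn (ENSMUSG00000078247.4) runs over 118826 bases on the plus strand at chr17:12741311-12860136 and has 6 annotated transcripts. All 6 are spliced and 435 to 1375 bases long, so an unspliced RNA of this span has no entry of its own. Fragments of such an RNA within these exons could count towards the annotated forms. The first exon of 5 of these, all but Airn-205, lies inside Igf2r (chr17:12682406-12769664, minus strand), and the last exons of Airn-204, the transcript that spans the most genome, lie inside Mas1 (chr17:12841079-12868143, minus strand). No Airn exon overlaps an exon of another annotated gene.

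The splice junctions that separate the isoforms described below are printed first, as 20 bases on each side of the join from the GENCODE M21 transcripts. Airn-201 joins a short first exon to a last exon of 1062 bases, and Airn-203 puts an exon of 223 bases between them and ends after 222 bases of the same last exon. Capitals mark the bases of the last exon that both share.
Airn-201, exon 1 to exon 2: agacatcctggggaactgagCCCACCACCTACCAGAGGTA
Airn-203, exon 1 to exon 2: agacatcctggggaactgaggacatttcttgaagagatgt
Airn-203, exon 2 to exon 3: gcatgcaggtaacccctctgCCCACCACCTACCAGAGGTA

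The exon that is found in Airn-203 and in no other annotated Airn transcript lies at chr17:12779290-12779512 on the plus strand, in sequence between Igf2r and the shared last exon.
Airn-203, exon 2: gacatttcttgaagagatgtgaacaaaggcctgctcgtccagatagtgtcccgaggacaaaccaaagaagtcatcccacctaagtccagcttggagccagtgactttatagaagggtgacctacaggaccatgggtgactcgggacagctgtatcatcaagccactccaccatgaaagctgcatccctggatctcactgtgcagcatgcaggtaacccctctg

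H19-202, the full-length form of 2286 bases, and H19-205, of 1521 bases, differ in the length of the first exon, by 4 bases at the start of the second, and in the end of the last, which is 586 bases in H19-202 and 582 in H19-205. Capitals mark the 4 bases at the start of the second exon that H19-205 lacks.
H19-202, exon 1 to exon 2: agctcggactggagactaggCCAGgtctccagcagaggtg
H19-205, exon 1 to exon 2: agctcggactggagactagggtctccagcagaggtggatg

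The 2 mature miRNAs of Mir675, from RefSeq on GRCm38.p6, lie on the minus strand at chr7:142577112-142577133 and chr7:142577078-142577099, within the first exon of H19-202 and of H19-205. Capitals mark the seed, bases 2 to 8, and the 2 seeds differ. The table holds long transcripts, so these show what the first exon encodes and were not measured.
mmu-miR-675-5p: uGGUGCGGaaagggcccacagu
mmu-miR-675-3p: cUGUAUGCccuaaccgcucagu

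Values are FPKM, which divides a transcript's fragments by its length in kilobases and by the size of the library, and a gene's value is the sum over its transcripts. The step that 1 fragment makes in the values put the depth at 22700000 to 29800000 fragments per library. Of the 250 to 326 single-exon genes per library with values of 0.5 to 3.5 such steps, 76.7% to 85.5% lay within 0.1 of a whole number, where even spacing would give 20%. Knockout replicate 5 stood apart from the rest. Its correlation of log2 values with the other 9 libraries, across genes, was 0.614 to 0.664, against 0.677 to 0.747 for the 36 pairs without it. It had 951 FPKM of the nuclear RNA Malat1, against 58.4 to 81.8 FPKM in the other libraries. Of 15 marker genes for heart cell types, 4 were in the table. In knockout replicate 5 the mesenchymal markers Dnm3os and Meg3 were at 4.65 and 7.92 FPKM, against 0.0839 to 0.827 and 0.517 to 3.76 FPKM elsewhere. The cardiomyocyte RNA Mhrt was at 0.835 FPKM in it, against 1.22 to 5.78 FPKM, and the smooth muscle RNA Carmn was at 9.56 FPKM, against 9.42 to 18.0 FPKM. The RNA of RNase MRP, Rmrp, was listed at 0 in knockout replicate 5 and in WT replicates 3, 5 and 6, and at 824 to 1434 FPKM in the other 6 libraries. No Sirt5 transcript was in the table, so the knockout could not be checked. In such bulk tissue, fewer cells of a type and less RNA per cell cannot be told apart.

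Airn was the most abundant of the imprinted RNAs per length in all 10 libraries, at 11.8 ± 1.72 FPKM in knockout ventricles and 13.4 ± 1.91 FPKM in WT ventricles (SD, n = 4 and 6). H19 followed at 2.18 ± 1.36 FPKM in knockout and 1.36 ± 0.424 FPKM in WT ventricles. Kcnq1ot1 was at 1.07 ± 0.547 FPKM in knockout and 0.745 ± 0.287 FPKM in WT ventricles. The lowest Airn value, 9.31 FPKM, was above the highest H19 value, 4.21 FPKM. H19 exceeded Kcnq1ot1 in 8 of 10 libraries, and in each genotype their means plus or minus 1 SD overlapped. By mean FPKM, Airn stood at rank 12, H19 at rank 112 and Kcnq1ot1 at rank 307 among the 2100 annotated genes that were tested.

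**Figure D1:**
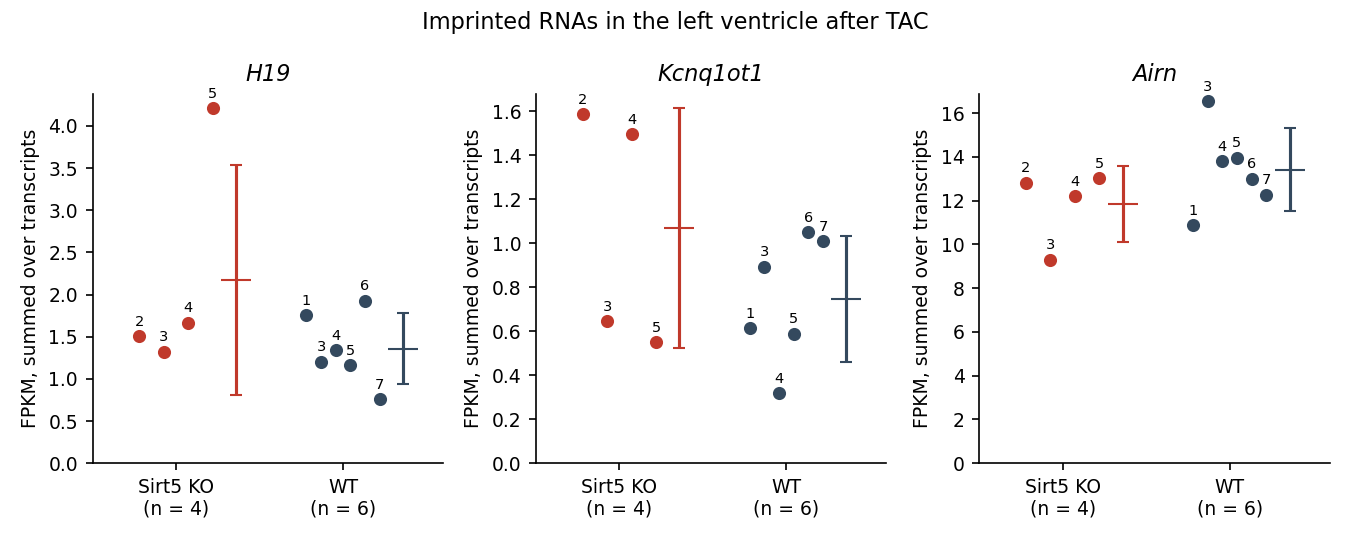
FPKM of H19, Kcnq1ot1 and Airn, summed over transcripts, in 4 Sirt5 knockout (red) and 6 WT (dark) libraries. Points are libraries marked with their replicate number, and bars show the mean and SD. H19 in knockout replicate 5 (4.21) and Kcnq1ot1 in knockout replicates 2 and 4 (1.59 and 1.49) lie above all WT points, and Airn in knockout replicate 3 (9.31) lies below them.

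Airn varied least. Within WT ventricles its coefficient of variation was 14.2%, against 31.2% for H19 and 38.5% for Kcnq1ot1. The highest library was 1.78 times the lowest for Airn, 5.54 times for H19 and 5.01 times for Kcnq1ot1. These values rested on an estimated 197 to 493 fragments per library for Airn, 43 to 227 for H19 and 880 to 3808 for Kcnq1ot1, whose length yields most fragments. Counting alone gives errors of 7.13% to 4.50%, 15.3% to 6.64% and 3.37% to 1.62% for Airn, H19 and Kcnq1ot1 from the fewest to the most fragments. Fragments copied in PCR are not independent molecules, so these errors cover counting only.

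The genotypes were compared with limma on log2(FPKM + 0.1) over the 3294 genes with a mean of at least 0.1 FPKM, with p adjusted by Benjamini-Hochberg and called below 0.05. This called 2 genes, Gm42208 and the assembled locus MSTRG.35125, both lower in the knockout, which is 0.0607% of the genes tested. With knockout replicate 5 left out it called 2 of 3271 genes, or 0.0611%. None of the 3 imprinted RNAs was called in either fit. Exact permutation tests of the difference in mean FPKM, two-sided over all 210 splits, could reach 0.00476 at the lowest, and without knockout replicate 5 they could reach 0.0119 over 84 splits.

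H19 was at 1.51, 1.32, 1.67 and 4.21 FPKM in knockout replicates 2, 3, 4 and 5, against 0.760 to 1.92 FPKM in WT ventricles, with a WT median of 1.27. Knockout replicate 5 was 2.19 times the highest WT library, and the other 3 knockout libraries lay within the WT range. The log2 fold change was 0.54 (SE 0.34, 95% interval -0.21 to 1.29), with a limma adjusted p of 0.729 and an exact permutation p of 0.152. Without knockout replicate 5 the knockout mean was 1.50 ± 0.174 FPKM (SD, n = 3), the log2 fold change was 0.18 (SE 0.27, interval -0.42 to 0.78), and the limma adjusted p was 0.909. H19 and the mesenchymal markers Dnm3os and Meg3 were all highest in knockout replicate 5, and the part of cell makeup in its H19 value was not tested.

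Kcnq1ot1 was at 1.59, 0.646, 1.49 and 0.549 FPKM in knockout replicates 2, 3, 4 and 5, against 0.317 to 1.05 FPKM in WT ventricles, with a WT median of 0.753. Knockout replicates 2 and 4 lay above all WT libraries and replicates 3 and 5 lay among them. The log2 fold change was 0.42 (SE 0.38, 95% interval -0.41 to 1.25), with a limma adjusted p of 0.776 and an exact permutation p of 0.243. With knockout replicate 5 left out the knockout mean was 1.24 ± 0.518 FPKM (SD, n = 3) and the log2 fold change was 0.66 (SE 0.39, interval -0.20 to 1.52), with a limma adjusted p of 0.792 and an exact permutation p of 0.0833. The libraries keep strand, but the sources used here do not give whether StringTie used it, so fragments of Kcnq1ot1 and of unspliced Kcnq1 on the other strand cannot be told apart.

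Airn was at 12.8, 9.31, 12.2 and 13.0 FPKM in knockout replicates 2, 3, 4 and 5, against 10.9 to 16.5 FPKM in WT ventricles, with a WT median of 13.4. Knockout replicate 3 lay below all WT libraries, and the other 3 lay within the WT range. The log2 fold change was -0.18 (SE 0.16, 95% interval -0.53 to 0.17), with a limma adjusted p of 0.775 and an exact permutation p of 0.243. Leaving out knockout replicate 5, it was -0.23 (SE 0.16, interval -0.59 to 0.13), with a limma adjusted p of 0.829. The interval for Airn was the narrowest of the 3 members in both fits.

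Summing FPKM gives a short isoform the same weight as a long one, so Airn was also summed after multiplying each transcript's FPKM by its length in kilobases, a choice made after seeing the data. On this length-weighted scale it was at 14.8, 8.16, 12.6 and 15.3 in knockout replicates 2, 3, 4 and 5, against 12.9, 19.5, 16.3, 16.3, 15.0 and 14.5 in WT replicates 1, 3, 4, 5, 6 and 7. The means were 12.7 ± 3.24 in knockout and 15.7 ± 2.24 in WT ventricles (SD, n = 4 and 6), with an exact permutation p of 0.124, and of 0.0595 without knockout replicate 5. Knockout replicates 3 and 4 were below all WT libraries on this scale, which can still depend on the forms to which StringTie assigned fragments.

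Of the 14 transcripts, 12 were above 0 in at least 1 library and 7 passed the filter of a mean of 0.1 FPKM. Over all transcripts, limma tested 4182 and called 0, which is 0.0%, while 134 higher and 204 lower had an unadjusted p below 0.05. None of the 7 tested members was called. Isoform values are StringTie's division of shared fragments between overlapping forms, and a value of exactly 0 can be a failed estimate, so isoforms with zeros are given library by library.

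**Figure D2:**
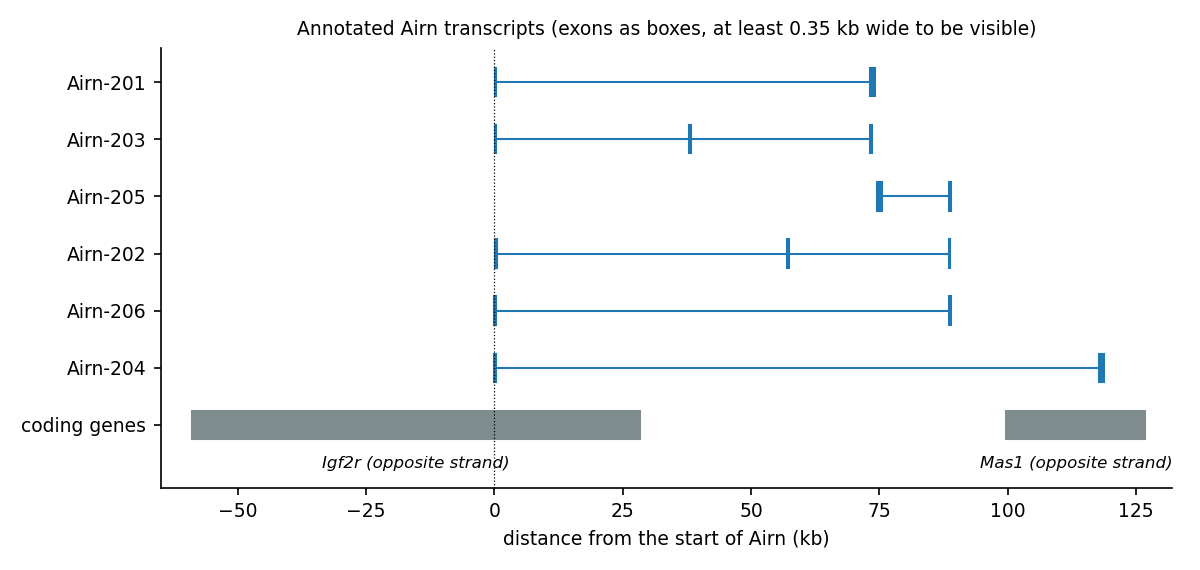
Map of the 6 annotated Airn transcripts by distance in kilobases from the start of the gene, with exons as boxes (drawn at least 0.35 kb wide) and introns as lines, above the spans of the coding genes Igf2r and Mas1 on the opposite strand. Airn-201 and Airn-203 end in the same exon, Airn-205 begins downstream of it, and Airn-204 ends inside Mas1.

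Airn-201 was the main form among the 6 annotated, spliced ones in WT ventricles, at 6.92, 10.9, 9.96, 8.88, 7.90 and 8.02 FPKM in WT replicates 1, 3, 4, 5, 6 and 7. In the knockout it was at 9.29 and 7.41 FPKM in replicates 2 and 5, at 2.60 FPKM in replicate 4 and listed at 0 in replicate 3. Estimated fragments were 267, 0, 66 and 195 in knockout replicates 2, 3, 4 and 5, against 201 to 331 in WT libraries. In FPKM, 2 knockout libraries lay within the WT range and 2 below it.

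Airn-203, the form with the extra exon, had the converse pattern. It was at 5.22 and 3.56 FPKM in knockout replicates 3 and 4 (61 and 39 estimated fragments) and listed at 0 in knockout replicates 2 and 5. In WT replicates 4, 6 and 7 it was at 0.0616, 0.102 and 0.0484 FPKM, about 1 fragment each, and it was listed at 0 in WT replicates 1, 3 and 5. The 2 knockout libraries with Airn-203 are those with little or no Airn-201.

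The log2 fold change of Airn-201 was -2.07 (SE 1.03), and its limma adjusted p was 0.657 and its exact permutation p 0.0524. Without knockout replicate 5 it was -2.68 (SE 1.10; limma adjusted p 0.700), and with knockout replicate 3 left out instead it was -0.61 with a limma adjusted p of 0.692. That of Airn-203 was 2.35 (SE 1.12), and its limma adjusted p was 0.634 and its exact permutation p 0.133. With knockout replicate 5 left out it was 3.26 (SE 1.08) with an unadjusted p of 0.0131 and a limma adjusted p of 0.558. It was 3.26 also without knockout replicate 2, 1.35 without replicate 3 and 1.53 without replicate 4, with limma adjusted p of 0.556 to 0.773. Fold changes of forms with values at 0 depend on the pseudocount.

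Taken as a share of the summed Airn FPKM, Airn-201 was 72.5%, 0%, 21.3% and 57.0% in knockout replicates 2, 3, 4 and 5, against 60.8% to 72.2% in WT ventricles. The mean difference was -27.6 percentage points, with an exact permutation p of 0.0667, and 0.0833 without knockout replicate 5. Leaving out knockout replicate 2 instead gave -39.1 points and an exact permutation p of 0.0119, the smallest that 84 splits allow. Without knockout replicate 3 it was -15.0 points, and without knockout replicate 4 it was -22.1 points, each with an exact permutation p of 0.167. The share thus varied widely between knockout libraries and little between WT libraries.

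**Figure D3:**
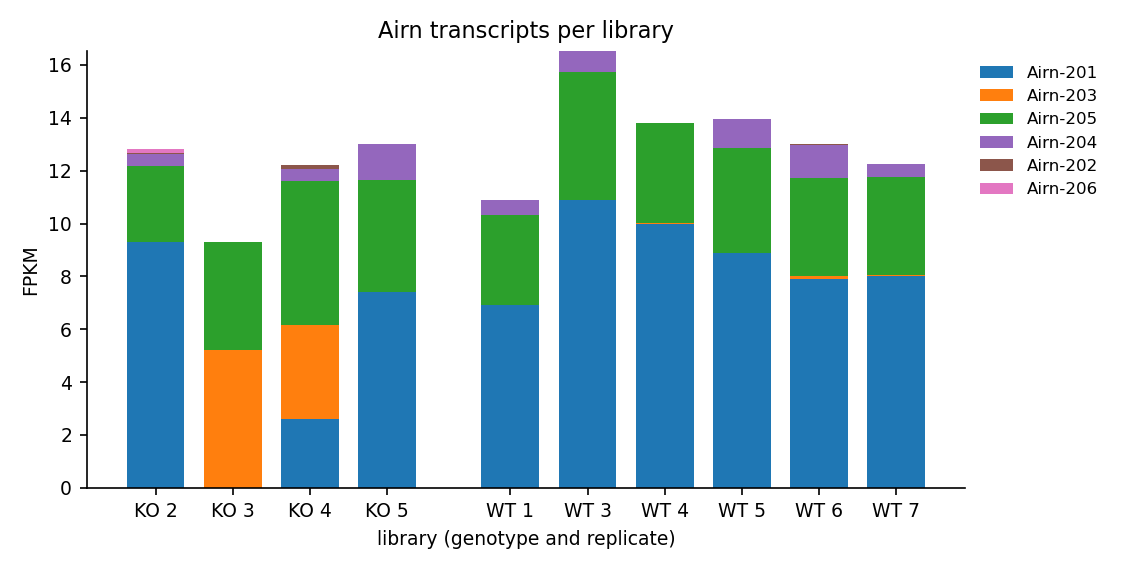
FPKM of the 6 Airn transcripts stacked per library, 4 Sirt5 knockout libraries (KO) left of 6 WT libraries. Airn-201 (blue) is the largest part in all WT libraries and in knockout replicates 2 and 5, while Airn-203 (orange) reaches 5.22 and 3.56 FPKM in knockout replicates 3 and 4.

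Because Airn-201 and Airn-203 share a last exon that starts at chr17:12814496, StringTie divided its fragments between them, so their sum was taken too. This sum, chosen after seeing the data, was 9.29, 5.22, 6.17 and 7.41 FPKM in knockout replicates 2, 3, 4 and 5, against 6.92 to 10.9 FPKM in WT ventricles. The means were 7.02 ± 1.76 FPKM in knockout and 8.80 ± 1.46 FPKM in WT ventricles (SD, n = 4 and 6), with an exact permutation p of 0.114. Length-weighted, it was 10.3, 2.53, 4.63 and 8.25 in the knockout libraries, against 7.70 to 12.1 in WT libraries, with an exact permutation p of 0.0762. The 2 knockout libraries with Airn-203 remained below the WT range on both scales. Airn-203 is 485 bases long and Airn-201 is 1113, so both sums still depend on the form to which StringTie assigned fragments. They are thus not a check on that assignment.

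Airn-205 lacks the annotated first exon and starts downstream of the end of Airn-201, at chr17:12815931. It was at 2.88, 4.09, 5.46 and 4.25 FPKM in knockout replicates 2, 3, 4 and 5, against 3.40 to 4.85 FPKM in WT ventricles. Its log2 fold change was 0.07 (SE 0.19, 95% interval -0.35 to 0.48) with a limma adjusted p of 0.954. Knockout replicates 3 and 4, which had little Airn-201, had 4.09 and 5.46 FPKM of Airn-205, the lower within and the higher above the WT range. Its share of Airn was 36.0% ± 10.5 in knockout and 29.2% ± 1.37 in WT ventricles (SD, n = 4 and 6).

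Airn-204, the only form that reaches Mas1, was at 0.446, 0, 0.434 and 1.35 FPKM in knockout replicates 2, 3, 4 and 5, and in WT ventricles at 0 in replicate 4 and 0.507 to 1.23 FPKM in the other 5. The genotypes overlapped, and the limma adjusted p was 0.913. Airn-202 and Airn-206 did not pass the filter. Airn-202 was highest in knockout replicate 4 (0.151 FPKM), and Airn-206 was above 0 only in knockout replicate 2 (0.157 FPKM).

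H19-202, the full-length form, carried 97.9% to 100% of H19 in knockout ventricles and 58.9% to 100% in WT ventricles. The difference in mean share was 16.7 percentage points, with an exact permutation p of 0.119. In the 6 libraries with Rmrp above 0, a subset chosen after seeing the data, it was 4.61 points with an exact permutation p of 0.700. This subset leaves out WT replicates 3, 5 and 6, the only libraries with H19-205, so the selection itself lowers the difference. The subset is also too small for this test to reach the threshold, so no conclusion is drawn from it. H19-202 was at 1.51, 1.29, 1.67 and 4.19 FPKM in knockout replicates 2, 3, 4 and 5, against 1.75, 0.710, 1.12, 0.747, 1.70 and 0.760 FPKM in WT replicates 1, 3, 4, 5, 6 and 7. Its log2 fold change was 0.81 (SE 0.38, 95% interval -0.02 to 1.64) with a limma adjusted p of 0.629. Leaving out knockout replicate 5, it was 0.45 with a limma adjusted p of 0.848, and in the libraries with Rmrp above 0 it was 0.34 with a limma adjusted p of 0.864.

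H19-205, which has the shorter first exon, was listed at 0 in all 4 knockout libraries and in WT replicates 1, 4 and 7. It was at 0.495, 0.415 and 0.158 FPKM in WT replicates 3, 5 and 6, on an estimated 19, 16 and 7 fragments. That is 41.1%, 35.7% and 8.22% of H19 in those libraries. The limma adjusted p was 0.734. These 3 are the WT libraries in which Rmrp was listed at 0, and knockout replicate 5, also without Rmrp, had no H19-205. Rmrp is not part of H19.

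The other H19 forms were rarer. H19-204 was above 0 only in WT replicate 4, at 0.212 FPKM on 6 fragments. H19-201 and H19-203 stayed at or below 0.0502 FPKM, and H19-206 and H19-207 were listed at 0 in all 10 libraries.

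**Figure D4:**
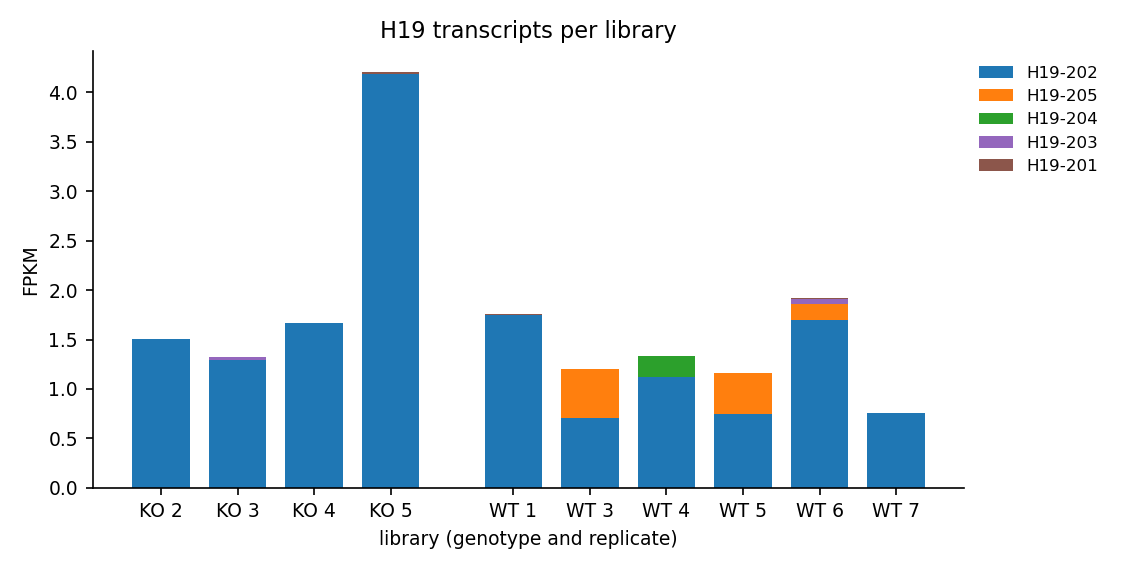
FPKM of the 5 H19 transcripts above 0 stacked per library, 4 Sirt5 knockout libraries (KO) left of 6 WT libraries. H19-202 (blue) makes up nearly all of H19 in the knockout, and H19-205 (orange) appears in WT replicates 3, 5 and 6.

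Ratios between the members were taken within each library after adding 0.1 FPKM to each value. The log2 ratio of H19 to Airn was -2.54 ± 0.631 in knockout and -3.26 ± 0.522 in WT ventricles (SD, n = 4 and 6), a difference of 0.72 with an exact permutation p of 0.0857. Without knockout replicate 5 the difference was 0.41 with an exact permutation p of 0.238, and in the libraries with Rmrp above 0 it was 0.38 with an exact permutation p of 0.400. The last subset is too small for this test to reach 0.05. The log2 ratio of Kcnq1ot1 to Airn was -3.47 ± 0.668 in knockout and -4.07 ± 0.590 in WT ventricles (SD, n = 4 and 6), a difference of 0.60 with an exact permutation p of 0.176. With knockout replicate 5 left out this difference was 0.89 with an exact permutation p of 0.0595. The log2 ratio of H19 to Kcnq1ot1 differed by 0.12 with an exact permutation p of 0.833, and by -0.48 without knockout replicate 5 with an exact permutation p of 0.381. With all 10 libraries none of these differences passed 0.05, and the 3 ratios are not independent of each other.

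Of a list of 33 other imprinted long non-coding RNAs of the mouse, 13 were in the table, 7 passed the filter and 0 were called. Of the 7, 5 had a higher and 2 had a lower mean log2 value in the knockout. Of all 3294 genes tested, 1531 were higher, 1763 were lower and 2 were called. Over all genes tested the median log2 fold change was -0.04, and over the list it was 0.66. That median is the value of Mirg. Meg3, Rian, Mirg and Dio3os, all among the higher genes, come from a single cluster on chromosome 12, so the 7 are not separate loci. Leaving out knockout replicate 5, the medians were 0.25 for the list and -0.04 for all genes. In the libraries with Rmrp above 0 the list median was 0.39, and with a pseudocount of 1 it was 0.25. Of the 7, 4 (Meg3, Mirg, Dio3os and Nespas) were highest in knockout replicate 5, as were 17.9% of all genes tested.

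Meg3, Rian and Mirg, the maternally expressed RNAs of the Dlk1-Dio3 cluster, had log2 fold changes of 0.68, 0.52 and 0.66 with limma adjusted p of 0.742, 0.742 and 0.653. Without knockout replicate 5 these were 0.25, 0.48 and 0.37, and in the libraries with Rmrp above 0 Meg3 turned to -0.06. Nespas, antisense at the Gnas locus, was 0.85 higher on the log2 scale (SE 0.40; limma adjusted p of 0.606), and 0.55 without knockout replicate 5. Dio3os had 0.67 with all libraries and 0.02 without knockout replicate 5.

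Snhg14, the host of small nucleolar RNAs at the Prader-Willi and Angelman locus, was at 0.527 ± 0.0851 FPKM in knockout and 0.850 ± 0.258 FPKM in WT ventricles (SD, n = 4 and 6). The log2 fold change of -0.57 (SE 0.25) had an unadjusted limma p of 0.0454 and a limma adjusted p of 0.580. Of the 3294 genes tested, 98 higher and 182 lower had an unadjusted limma p below 0.05. A330076H08Rik had -0.32 with a limma adjusted p of 0.860. B830012L14Rik, from the Meg3 cluster, fell below the filter. It was at 0.110 to 0.180 FPKM in knockout ventricles, above the 0.0395 to 0.0883 FPKM in WT ventricles. For comparison, the genotypes did not overlap for 2.16% of the genes tested. Those all passed the filter that B830012L14Rik did not, and no such share was taken over genes below it.

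**Figure D5:**
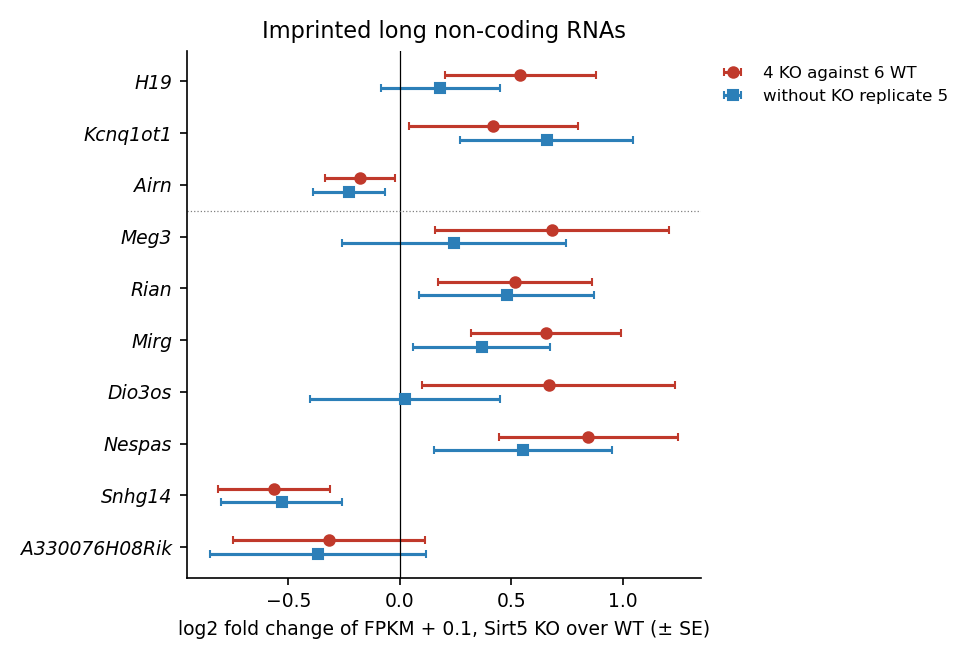
Log2 fold change of FPKM + 0.1, Sirt5 knockout over WT, with its SE, for H19, Kcnq1ot1 and Airn and for the 7 tested genes of the imprinted list. Red points use all 10 libraries and blue squares leave out knockout replicate 5. Values run from -0.57 for Snhg14 to 0.85 for Nespas with all libraries.

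Within 500 kb of any member lay 29 other genes of the table, of which 9 were at 0 in all libraries, 9 passed the filter and 0 were called. Over the whole table, 3294 of 14787 genes and loci passed the filter and 8262 were above 0 in at least 1 library. Of the 3294 tested, 2 were called. R74862, between H19 and Kcnq1ot1 on chromosome 7, was at 0.873 ± 0.0940 FPKM in knockout and 0.736 ± 0.199 FPKM in WT ventricles (SD, n = 4 and 6), with a log2 fold change of 0.25 and a limma adjusted p of 0.775. Gm45889, 285111 bases from H19, was at 0.0676 ± 0.0484 FPKM in knockout and 0.159 ± 0.0553 FPKM in WT ventricles (SD, n = 4 and 6), with a limma adjusted p of 0.663. Gm37235, at chr7:143127792-143127850 within the Kcnq1 span, was listed at 0 in all 4 knockout libraries and in WT replicates 1, 5 and 6. It was at 0.283, 0.536 and 0.452 FPKM in WT replicates 3, 4 and 7, with a limma adjusted p of 0.666. In a gene this short such values rest on very few fragments. Near Airn only 4732491K20Rik passed the filter, at 0.472 ± 0.329 FPKM in knockout and 0.582 ± 0.482 FPKM in WT ventricles (SD, n = 4 and 6). The coding genes Igf2, Igf2r, Kcnq1 and Mas1 were not in the table.

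The FPKM of 2099 other annotated genes tested were compared with each member over the 10 libraries by Spearman's rho. This is a description with no test, since all genes of a library share its depth and scaling. The genes that followed each member most closely are given here. For H19 they were Gm44836 (rho 0.855), C230035I16Rik (0.842) and 4933439K11Rik (0.842). For Kcnq1ot1 they were Gm49024 (0.891), Gm28610 (0.867) and Myadml2os (0.855). For Airn they were AC110730.1, Gm11455 and Tmem147os, at 0.842 each. Over the 9 libraries without knockout replicate 5 these 9 values were between 0.783 and 0.900. The genes were picked as the highest of 2099 on libraries that include these 9, so high values follow in part from the picking.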

How the data were processed

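RNA from 4 Sirt5 knockout and 6 WT left ventricle samples taken after TAC was sequenced after removal of ribosomal RNA. Per the labels' protocols, the second cDNA strand was digested and reads were mapped to GRCm38. Per the series' design text, HISAT2 was the authors' aligner (no version given), and StringTie 1.2.0 made the FPKM. That text also names HTSeq 0.6.1; counts were not used here. The text names different ribosomal RNA removal kits and sequencers without assigning them to samples, so no batch could be fitted. The deposited FPKM values cover 20741 long non-coding transcripts, of which 18969 matched GENCODE M21, 1629 were assembled by StringTie and 143 did not match.

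FPKM were summed per gene and log2(FPKM + 0.1) was fitted with limma 3.58.1 in R 4.3.3 (lmFit, eBayes with an intensity trend, genotype only) over all 3294 genes or 4182 transcripts with a mean of at least 0.1 FPKM, with Benjamini-Hochberg adjustment and a threshold of 0.05. The fit was tested on simulated data. Single values and shares were compared with exact two-sided permutation tests that went through all splits (Python 3.11.15, NumPy 2.4.6). Depth was estimated from the step of 1 fragment in genes with a single one-exon transcript. Genes named are the members, the imprinted list, neighbours within 500 kb and, per member, the 3 genes with the highest Spearman's rho. The members, lists, filter and pseudocount were chosen with earlier results of these data known; a pseudocount and minimum of 0.1 were used because Kcnq1ot1 is below a mean of 1 FPKM. Alternatives were pseudocounts of 1 and 0.01, a minimum of 1 FPKM or none, 2 other scalings, no trend, a replicate block and leaving out each library. Replicate numbers shared by the genotypes were not used to pair samples, except in the replicate block.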

Additional observations from a re-analysis of the deposited data

Results flagged for a closer look

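In groups of 4 or 6 libraries, 58 were checked for a library far from the rest by Dixon's test at the 95% level, which chance passes in about 1 in 20. The test found 7, which are not 7 separate observations, since H19 and H19-202 are the same fragments and a single value above 0 among zeros, as for Gm38095, passes whatever its size. H19 was at 4.211 FPKM in knockout replicate 5 and at 1.32 to 1.667 FPKM in the other knockout libraries. H19-202 was at 4.188 FPKM in the same library and at 1.293 to 1.667 FPKM in the others. Dio3os, an imprinted RNA at the far end of the Meg3 cluster, was at 2.18 FPKM in knockout replicate 5 and at 0.1771 to 0.4921 FPKM in the other knockout libraries. Meg3 was at 0.5169 FPKM in WT replicate 5 and at 2.128 to 2.986 FPKM in the other WT libraries. Gm32786, a neighbour of H19, was at 0.2829 FPKM in WT replicate 3 and at 0.4846 to 0.568 FPKM in the other WT libraries. Gm38095, inside the Kcnq1 span, was at 0.4978 FPKM in knockout replicate 2 and at 0.5552 FPKM in WT replicate 6, and was listed at 0 in the other 8 libraries.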

How the results depend on the processing

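H19, Kcnq1ot1, Airn and their tested transcripts were called in none of the alternatives run. Over the limma alternatives the log2 fold change of H19 ranged from 0.18 (without knockout replicate 5) to 0.73 (replicate block). That of Kcnq1ot1 ranged from 0.20 (without knockout replicate 2) to 0.87 (libraries with Rmrp above 0). It was 0.23 each without knockout replicate 4 or WT replicate 4. That of Airn ranged from -0.37 (replicate block) to -0.07 (without knockout replicate 3). The limma adjusted p ranged from 0.590 to 0.909 for H19, 0.696 to 0.906 for Kcnq1ot1 and 0.697 to 0.951 for Airn. Length-weighted sums, added after seeing the data, gave log2 ratios of means of 0.77, 0.52 and -0.31 with exact permutation p of 0.110, 0.243 and 0.124. When single libraries were left out, the log2 fold change of Airn-204 ran from -1.01 to 0.28 (positive without knockout replicate 3) and that of Airn-205 from -0.0713 to 0.228 (negative without knockout replicate 4). Kcnq1ot1 could not be tested at a minimum mean of 1 FPKM. The difference in log2 H19 to Kcnq1ot1 ratio ran from -0.48 to 0.46 when single libraries were left out, with -0.11 without WT replicate 7, and was -0.60 in the 6 libraries with Rmrp above 0, a choice made after seeing the data. The H19 to Airn difference ran from 0.41 to 0.88 and reached an exact permutation p of 0.0476 without WT replicate 1 (0.86) or WT replicate 6 (0.83). In the libraries with Rmrp above 0 that difference was 0.38 with an exact permutation p of 0.400, in a subset too small for this test to reach 0.05. The Airn-201 share difference ran from -39.1 (without knockout replicate 2) to -15.0 points (without knockout replicate 3). The cause of these shifts was not tested. Of all genes, 2 were called; pseudocount 1 gave 1, a minimum of 1 FPKM gave 3, and pseudocount 0.01, no filter, median-of-ratios scaling, a common sum and no trend gave 0 each, while leaving out single libraries gave 0 to 6 (6 without knockout replicate 2). Of all transcripts, 0 were called with limma; pseudocount 0.01 gave 4 and leaving out single libraries 0 to 2. Same-numbered libraries deviated with correlations of -0.0457, 0.0380 and -0.0253, against -0.0644 to 0.0938 for differently numbered ones. This shows no pairing by number, but so few correlations cannot exclude it. With the replicate block 0 genes and 0 transcripts were called. Its log2 fold changes were 0.73 for H19, 0.48 for Kcnq1ot1 and -0.37 for Airn. They rest on replicates 3, 4 and 5 alone, the numbers that both genotypes hold. Isoforms at under 20 fragments, such as H19-205, are at the limit of this depth.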
